A study of Mus musculus with 18 samples.

Results

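The comparison described here is that of left and right ventricle (LV and RV) in mouse hearts that were reperfused without cold storage. Its members were chosen by their labels as the libraries of 0 h storage, 3 of LV and 3 of RV, which are 6 of the 18 libraries of the series. The other 12 libraries come from other hearts stored for 4 h or 8 h, with 3 libraries per ventricle and storage time, and were used only to look at the same differences again. All mice were of strain C57B/L6 and aged 12 weeks by the labels. The methods of the study give a younger age and state that both sexes were used.

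Every heart in both groups was flushed with HTK (histidine-tryptophan-ketoglutarate, a cold cardioplegic and preservation solution), mounted on an ex-vivo apparatus, and perfused for 1 h with Krebs buffer before LV and RV tissue was frozen for RNA extraction. The 0 h groups are therefore flushed and reperfused tissue and not untouched ventricle. The methods describe a pressure balloon that was placed first in the RV and then in the LV of the same heart, so that chamber and order of balloon measurement cannot be told apart in this comparison. The label of the tissue is the whole ventricle, and in such bulk RNA fewer cells of a type and less RNA per cell cannot be told apart.

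The left ventricle pumps against systemic pressure with a thick wall, whereas the right ventricle pumps against the lower pressure of the lungs with a thin wall. The chambers also differ in origin, since most of the LV descends from the first heart field and most of the RV from the second, and transcription factors of the T-box, Hand, Iroquois, and Hey families pattern them in the embryo. Ventricular cardiomyocytes under load re-express a fetal program that includes natriuretic peptide B (Nppb), skeletal alpha-actin (Acta1), and beta-myosin heavy chain (Myh7), and these genes are commonly read as markers of wall stress.

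The 6 libraries held between 26792741 and 46236771 estimated counts, with the highest total in LV replicate 1. Mitochondrially encoded genes took between 22.7% and 32.6% of the counts, with the highest share in RV replicate 3. Ventricular cardiomyocyte markers (Myl2, Myh6, Myl3, and 5 others) summed to between 47800 and 57800 CPM in LV and between 48500 and 57000 CPM in RV. No member of that list was called. Myh6 made up most of these sums, and they do not show whether a library also held atrial tissue. Atrial markers are given below. CPM values are counts scaled to a common library size after TMM normalization. Lung epithelium markers summed to less than 0.4 CPM in every library (highest value 0.371 CPM), and skeletal muscle markers to between 1.4 and 1.86 CPM.

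Libraries with the same replicate number shared deviations. The Y-linked gene Ddx3y had 87.3, 1.69, and 68.5 CPM in LV replicates 1, 2, and 3 and 82.7, 1.86, and 62.1 CPM in RV replicates 1, 2, and 3, so that replicate 2 of both ventricles was low. Deviations from the group means correlated across genes by 0.33 to 0.54 (Pearson's r) between same-numbered LV and RV libraries and by −0.39 to −0.06 between others. Deviations from a mean cancel out over the 3 libraries of a group, so the negative values partly follow from the positive ones. Results are therefore given without pairing and with the heart as a block. Calls are from edgeR's quasi-likelihood test, with 0.1 as the limit of the adjusted p and 1.5 as the smallest fold change.

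Without pairing, 11 of 15093 tested genes were higher in LV (0.0729% of tested genes) and 13 were lower (0.0861%), 24 genes in all (0.159%). At an unadjusted p under 0.05 there were 484 genes (3.21%), and 2161 (14.3%) with the heart as a block. With the heart as a block, 126 genes were higher in LV (0.835%) and 153 were lower (1.01%), and these included all 24 genes of the unpaired fit. All 126 genes and 151 of the 153 differed in the same direction in 3 of 3 hearts, which a call by the blocked test on these same hearts largely requires. The CPM of LV and RV did not overlap for 90 of the 126 and 128 of the 153, against 4.71% (LV higher) and 5.39% (LV lower) of all tested genes, 10.1% together. These genes were called on the same libraries, so a high share without overlap also follows largely from their choice. The unpaired calls were sensitive to single libraries. Without LV replicate 2, edgeR called 0 genes (177 higher and 249 lower at an unadjusted p under 0.05), and without RV replicate 3 it called 0 higher and 2 lower (206 and 234), while DESeq2 on all libraries called 22 higher and 37 lower. In the blocked fit 53 to 71 genes were higher and 41 to 62 were lower when 1 heart was left out. Across all tested genes the median log2 difference was −0.0048 (48.8% of genes higher in LV), a balance that the TMM normalization largely sets.

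**Figure D1:**
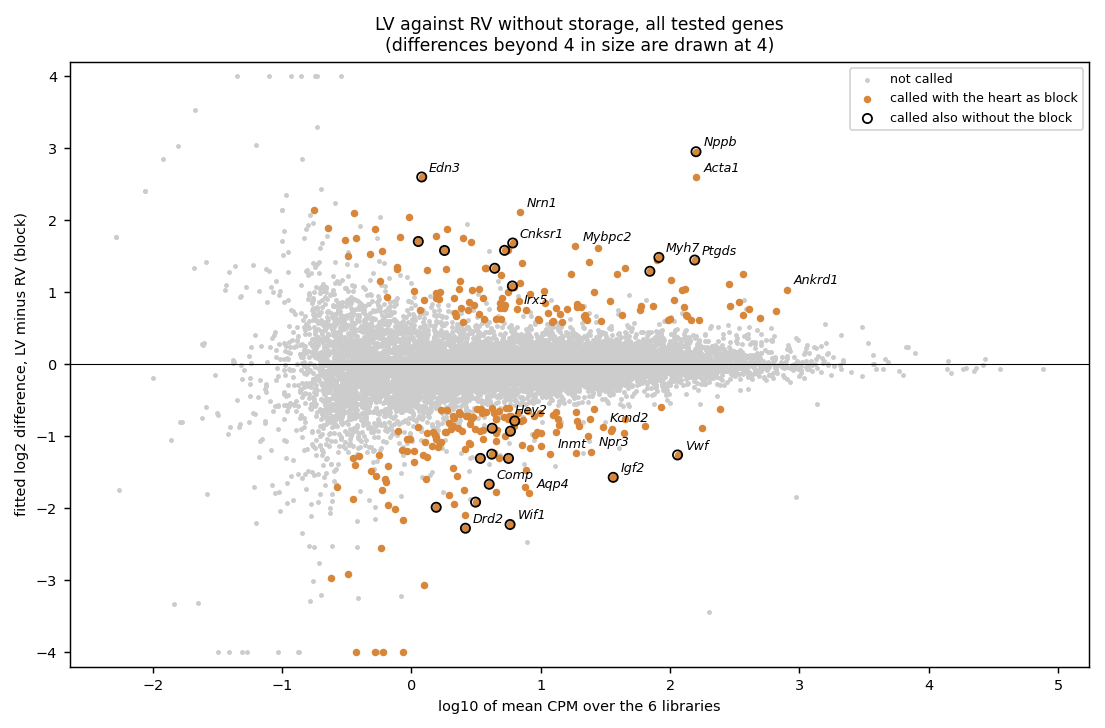
Log10 of the mean CPM over the 6 libraries (x axis) against the fitted log2 difference of LV minus RV with the heart as a block (y axis), 1 point per tested gene, with differences beyond 4 drawn at 4. Filled orange points are the 126 genes higher and 153 genes lower in LV, and ringed points are the 11 and 13 also called without the block, with Nppb at 2.95 and Wif1 at −2.23.

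The 2 largest LV differences above 5 CPM with the block were those of Nppb and Acta1, genes of the load and stress response. Nppb (chr4:147985788-147987205, plus strand, GRCm38), which encodes the natriuretic peptide secreted by stretched ventricle, had 439, 209, and 194 CPM in LV and 55.3, 26.5, and 26.2 CPM in RV. The lowest LV library was above the highest RV library, and replicate 1 was the highest in both ventricles. The log2 difference was 2.96 ± 0.527 (SE, adjusted p = 0.0657, edgeR) without pairing and 2.95 ± 0.24 (adjusted p = 0.000192) with the block, and it lay between 2.88 and 2.99 in the 3 hearts.

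Acta1 (chr8:123891769-123894751, minus strand), skeletal alpha-actin of the thin filament, had 276, 223, and 317 CPM in LV and 59.8, 27.8, and 52.2 CPM in RV. All LV libraries were far above all RV libraries, yet the unpaired edgeR test gave a log2 difference of 2.55 ± 0.712 with an adjusted p of 0.545. With the block the difference was 2.6 ± 0.269 (adjusted p = 0.000639, edgeR). Myh7 (chr14:54970684-54994626, minus strand), the slow myosin heavy chain of the fetal mouse ventricle, had 175, 123, and 69.1 CPM in LV and 51.5, 40.9, and 32.6 CPM in RV. The groups did not overlap, and the log2 difference was 1.55 ± 0.289 (adjusted p = 0.0658, edgeR) without pairing and 1.48 ± 0.134 (adjusted p = 0.000254) with the block.

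Myh6, the adult mouse cardiac myosin, did not pass the test, with 38200, 35000, and 30000 CPM in LV and 39300, 37900, and 31400 CPM in RV. On the length-scaled TPM level, Myh6 averaged 11400 in LV and 12500 in RV, whereas Myh7 averaged 33.9 and 12.5. Myh7 was thus a minor myosin transcript in both chambers. Nppb averaged 603 TPM in LV and 76.7 in RV, and Acta1 averaged 268 and 45.7. Myh7 and Myh6, and Acta1 and the other actins, are close in sequence, and the pseudoalignment divides shared reads between such genes, so that the counts of the rarer gene of each pair are less certain than their depth implies.

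Because these 3 genes moved together, the 250 bases before their RefSeq starts (GRCm38.p6) are shown with the matches to 7 motifs in capitals, beside those of Wif1, the called gene with the largest RV excess above 5 CPM. Both strands were searched. The letters taken for a T-box site, bound by Tbx5 and its relatives, were AGGTGT. Those for a GATA factor site were AGATAA, and the E-box of Hand and other helix-loop-helix proteins was read as CAGCTG. For the Iroquois factors the letters were ACATGT. The TATA box, where the basal machinery assembles, was read as TATAAA. The M-CAT motif, the site of the TEAD factors, was read as CATTCC, and the CArG box of serum response factor was searched by its usual consensus. In Nppb the M-CAT and E-box matches adjoin. The windows are chr4:147985650-147985899 for Nppb, chr8:123894776-123895025 for Acta1, chr14:54994627-54994876 for the upstream of the RefSeq starts of Myh7, and chr10:121033754-121034003 for Wif1, each written 5′ to 3′ on the strand of the gene.
Nppb: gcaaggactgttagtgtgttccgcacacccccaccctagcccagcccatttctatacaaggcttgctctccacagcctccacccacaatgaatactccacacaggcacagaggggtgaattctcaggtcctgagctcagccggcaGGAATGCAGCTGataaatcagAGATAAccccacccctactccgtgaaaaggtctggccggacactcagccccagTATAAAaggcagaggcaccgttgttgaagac
Acta1: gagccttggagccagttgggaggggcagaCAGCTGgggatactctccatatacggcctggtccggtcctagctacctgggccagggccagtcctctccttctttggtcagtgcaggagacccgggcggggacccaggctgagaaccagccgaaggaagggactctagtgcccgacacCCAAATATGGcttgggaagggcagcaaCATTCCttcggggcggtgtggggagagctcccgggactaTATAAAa
Myh7: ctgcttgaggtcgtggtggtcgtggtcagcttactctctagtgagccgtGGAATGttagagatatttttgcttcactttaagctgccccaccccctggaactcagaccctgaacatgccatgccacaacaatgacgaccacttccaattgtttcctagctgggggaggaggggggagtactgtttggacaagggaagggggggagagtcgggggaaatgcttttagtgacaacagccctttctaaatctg
Wif1: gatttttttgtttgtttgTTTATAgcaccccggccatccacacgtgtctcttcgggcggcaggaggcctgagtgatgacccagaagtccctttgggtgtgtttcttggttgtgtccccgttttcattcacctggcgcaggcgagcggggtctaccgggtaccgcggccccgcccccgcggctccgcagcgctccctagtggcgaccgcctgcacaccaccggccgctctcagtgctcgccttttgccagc

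The capitals mark an M-CAT match at −105 in Nppb, −46 in Acta1, and −201 in Myh7, counted from the RefSeq start of each window, with E-box matches at −99 in Nppb and −221 in Acta1. Nppb also holds a GATA match at −84 and a TATA match at −31, and Acta1 a CArG match at −73 and a TATA match at −7. The Wif1 window holds a TATA match on the other strand at −232. The RefSeq starts of Nppb and Wif1 lie inside the GENCODE spans given for these genes, so that part of each window is within the annotated gene. A second RefSeq start of Myh7 has a window (chr14:54994550-54994799) with no match. Matches to M-CAT were not particular to LV genes, since Igf2, described below as higher in RV, has them at −218 and −112 of one window and at −180 and −163 of others, and Npr3 has no match to any of the motifs. In all, 12.6% of 32851 RefSeq windows held an M-CAT match, 23.5% of the 98 windows of genes called higher in LV with the block, and 15.9% of the 132 windows of genes called lower. E-box matches were in 13.0%, 17.3%, and 12.1%, T-box in 11.8%, 12.2%, and 9.85%, GATA in 9.99%, 5.1%, and 6.82%, TATA in 12.4%, 15.3%, and 15.2%, Iroquois in 4.58%, 4.08%, and 1.52%, and CArG in 1.47%, 2.04%, and 0.758%. The M-CAT and CArG motifs were added after the values had been seen, and a match is only a run of letters. Vwf, described below with the RV genes, was not among the RefSeq windows.

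In the list of natriuretic peptide and stress genes as a whole, 7 of 10 tested genes were called higher in LV with the block. These were Nppb, Acta1, Myh7, Ankrd1, Rcan1, Ccn2, and Gdf15. None were lower, and the median log2 difference was 0.83. Over all tested genes the share called higher was 0.835%. The list was chosen with earlier results of these data known, so its count is not a test. Of the 7, Nppb, Acta1, Myh7, and Ankrd1 kept an adjusted p under 0.1 in all 10 settings of the blocked fit, which include a test against a fold change of 1.5 and the omission of each heart. Ankrd1, a stretch-responsive cofactor at the titin filament, had 1360, 909, and 949 CPM in LV and 669, 447, and 457 CPM in RV. No values overlapped, and the difference was 1.03 to 1.05 in each heart (adjusted p = 0.000786 with the block and 1.0 without, edgeR). Rcan1, the calcineurin inhibitor that calcineurin itself induces, had 217, 128, and 77.8 CPM in LV and 112, 57.4, and 52.6 CPM in RV. Its groups overlapped across hearts, although LV was higher within each heart (log2 0.89 ± 0.11, adjusted p = 0.00182 with the block, edgeR). Nppa, the atrial natriuretic peptide, had 222, 113, and 193 CPM in LV and 238, 154, and 69.1 CPM in RV, with both signs among the hearts and an adjusted p of 0.861 with the block (edgeR).

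**Figure D2:**
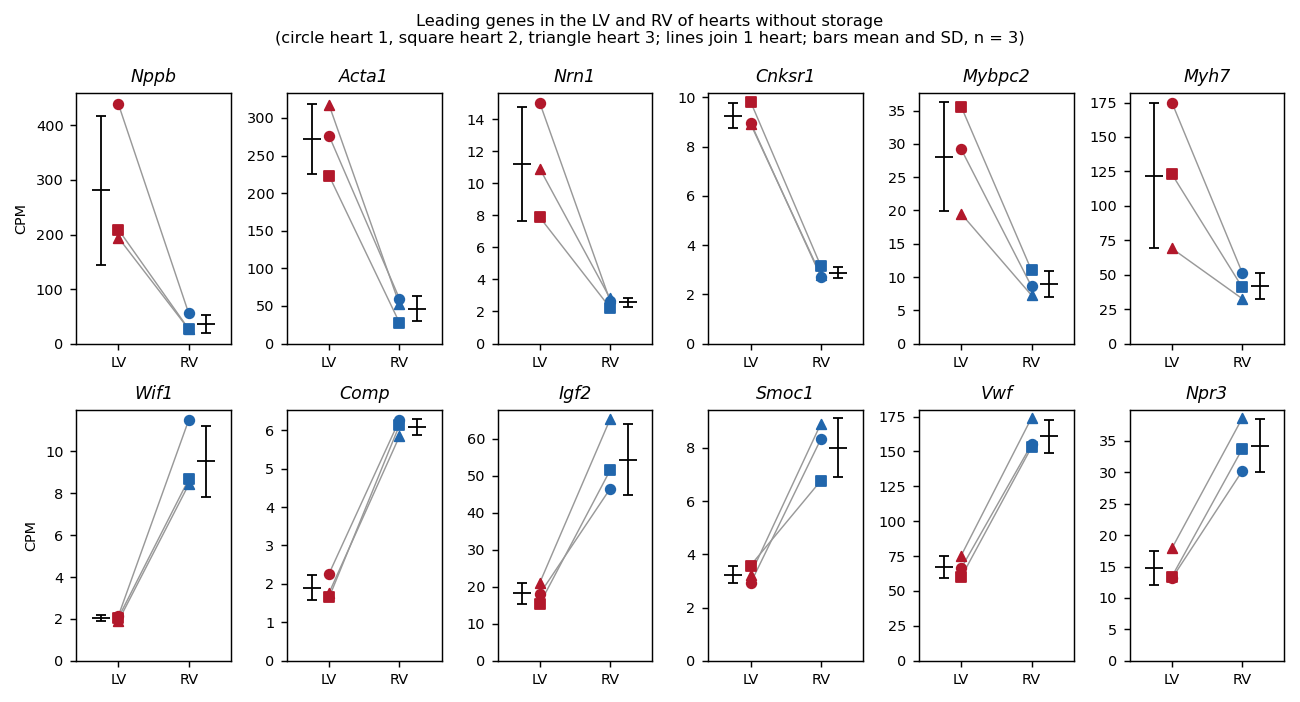
CPM on linear axes from 0 in the LV (red) and RV (blue) libraries of 12 leading genes, with 1 symbol per heart, lines joining libraries of the same number, and bars for mean and SD (n = 3). In each of the 3 hearts the upper genes, such as Nppb and Myh7, fell from LV to RV and the lower genes, such as Wif1 and Vwf, rose.

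Other sarcomere and Z-disc genes gave a mixed picture. Of 25 sarcomere genes, 3 were called higher with the block (Myh7, Acta1, and Xirp2) and none lower, 5 passed the adjusted p at any fold (4.09% of all tested genes did), and the median difference was 0.22. Xirp2, which binds actin at the intercalated disc, had 571, 506, and 472 CPM in LV and 347, 305, and 258 CPM in RV without overlap (log2 0.77 ± 0.0815, adjusted p = 0.000715, edgeR), and it did not pass the blocked test against a fold change of 1.5 (adjusted p = 0.747). Several genes best known from skeletal muscle were also among the leading LV genes. Myot, a Z-disc protein that crosslinks actin, had 42.5, 41.3, and 40.8 CPM in LV and 13.9, 14.2, and 12.8 CPM in RV. The libraries of each ventricle were nearly equal and the groups far apart (log2 1.61 ± 0.117 with the block, adjusted p = 0.000141, and adjusted p = 0.12 without, edgeR). Mybpc2, the fast-fiber myosin binding protein C, had 29.2, 35.6, and 19.5 CPM in LV against 8.59, 11, and 7.25 CPM in RV (log2 1.63 ± 0.148 with the block, adjusted p = 0.000254, edgeR). Casq1, the calsequestrin of fast muscle, had 13.3, 12, and 5.82 CPM in LV against 4.91, 3.49, and 3.04 CPM in RV (adjusted p = 0.0185 with the block, edgeR, and over 0.1 in 3 of 10 blocked settings). Of the skeletal muscle markers, Mylpf was at most 0.718 CPM in any library, and none of the 3 tested genes was called.

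The remaining LV genes of the unpaired fit had varied roles. Ptgds, which makes prostaglandin D2, had 217, 185, and 277 CPM in LV and 90.9, 66.3, and 91.4 CPM in RV (chr2:25466709-25470046, minus strand). No values overlapped, and the log2 difference was 1.45 ± 0.219 (adjusted p = 0.0214, edgeR) without pairing. Bdh1, the mitochondrial enzyme that oxidizes the ketone body beta-hydroxybutyrate, had 78.1, 120, and 97.4 CPM in LV and 32.1, 54.9, and 35.4 CPM in RV (chr16:31422280-31458901, plus strand). The groups were apart, with a log2 difference of 1.27 ± 0.253 (adjusted p = 0.0911, edgeR) without pairing and 1.29 ± 0.095 (adjusted p = 0.000141) with it. Cnksr1, a scaffold of Ras signaling, had 8.98, 9.83, and 8.93 CPM in LV and 2.72, 3.15, and 2.78 CPM in RV, a tight and separate pair of groups (chr4:134228041-134238399, minus strand, log2 1.68 ± 0.252, adjusted p = 0.0214, edgeR, unpaired).

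Lower in level were Gnb3, a G protein beta subunit (9.91, 5.77, and 7.96 CPM in LV and 3.04, 2.47, and 2.32 CPM in RV), and Edn3, the peptide endothelin 3 (2.54, 1.96, and 1.68 CPM in LV and 0.351, 0.44, and 0.229 CPM in RV). Edn3 had the second largest fitted difference of the unpaired LV genes, at a log2 of 2.59 ± 0.499 (adjusted p = 0.0735, edgeR). Dct, an enzyme of melanin synthesis, had 4.75, 8.24, and 5.97 CPM in LV and 2.16, 3.22, and 2.09 CPM in RV. Ttc39a, the carboxylesterase Ces2e, and the predicted gene Gm5512 made up the rest, with unpaired log2 differences of 1.58, 1.7, and 1.08. None of these 6 genes had overlapping values, but neither did any of the 24 unpaired calls, which were chosen on these libraries. Of all tested genes 10.1% did not overlap. With the block, the leading genes above 5 CPM further included Nrn1 (neuritin, log2 2.11), Klhl34 (1.59), Abra (an actin-binding protein of striated muscle, 1.44), the cadherin Cdh4 (1.34), and Gm29013 (1.34). Gm29013 was uneven between replicates of RV, at 22.9, 6.43, and 62.1 CPM, and its groups overlapped. Exons of Nrn1 overlap Fars2 on the other strand, and the default Kallisto settings stated in the methods do not use strand.

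The genes higher in RV included a Wnt antagonist, a clotting factor, and a growth factor. Wif1, a secreted inhibitor that binds Wnt ligands, had 2.15, 2.06, and 1.9 CPM in LV and 11.5, 8.67, and 8.42 CPM in RV (chr10:121033960-121100650, plus strand). No LV library came near an RV library, and the log2 difference was −2.22 ± 0.312 (adjusted p = 0.0201, edgeR) without pairing and −2.23 ± 0.209 (adjusted p = 0.000272) with it. Wif1 was the only gene called at 0, 4, and 8 h without pairing. Vwf, the von Willebrand factor of endothelium, had 66.3, 60, and 75.4 CPM in LV and 155, 153, and 174 CPM in RV (chr6:125546774-125686679, plus strand). Its groups were separate, with a log2 difference of −1.26 ± 0.225 (adjusted p = 0.0657, edgeR) unpaired and −1.26 ± 0.0951 (adjusted p = 0.000141) with the block. Igf2, the fetal growth factor, had 18.1, 15.4, and 21.1 CPM in LV and 46.5, 51.5, and 65.3 CPM in RV (chr7:142650766-142666816, minus strand). Every RV library was above every LV library (log2 −1.58 ± 0.297, adjusted p = 0.0658, edgeR, unpaired).

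Several of the other unpaired RV calls encode matrix or adhesion proteins. Comp, a pentameric protein of cartilage and tendon matrix, had 2.27, 1.65, and 1.77 CPM in LV and 6.26, 6.13, and 5.84 CPM in RV (chr8:70373558-70382066, plus strand, log2 −1.67 ± 0.315, adjusted p = 0.0658, edgeR). Smoc1, a secreted calcium-binding matrix protein, had 2.91, 3.58, and 3.24 CPM in LV and 8.33, 6.77, and 8.91 CPM in RV (log2 −1.31 ± 0.24, adjusted p = 0.0658, edgeR). Vit, an extracellular matrix protein, and the adhesion molecules Ncam1, Cdh11, and Ptpru were lower in LV by unpaired log2 differences of −1.26, −0.88, −0.79, and −0.94. None of these 6 genes had overlapping values, which was so for all 24 unpaired calls and for 10.1% of all tested genes. In the wider list of 29 collagen and matrix genes, which does not hold these 6, the median was −0.03. In that list, Col8a1 and Thbs1 were called higher in LV and Mmp3 lower with the block. Col8a1, a short-chain collagen, had 22.4, 30.4, and 25.9 CPM in LV and 13.4, 15.9, and 15.6 CPM in RV without overlap. Its log2 difference was 0.8 ± 0.126 (adjusted p = 0.00903, edgeR, with the block). The adjusted p was over 0.1 in 2 of 10 blocked settings.

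The RV calls also held a dopamine receptor and a peptidase. Drd2, the inhibitory dopamine D2 receptor, had 0.558, 1.38, and 0.84 CPM in LV and 5.41, 3.86, and 3.62 CPM in RV (chr9:49340627-49408177, plus strand). The lowest RV library was above the highest LV library, and the log2 difference was −2.23 ± 0.419 (adjusted p = 0.0658, edgeR, unpaired). Ddc, the decarboxylase that makes dopamine from L-DOPA, had 3.04, 2.8, and 2.36 CPM in LV and 8.1, 7.01, and 5.29 CPM in RV. It was called with the block (log2 −1.31 ± 0.272, adjusted p = 0.0331, edgeR) and had an adjusted p of 0.578 without. Dpp4, the membrane peptidase that cleaves incretins, had 1.9, 1.69, and 2.3 CPM in LV and 4.76, 4.94, and 4.86 CPM in RV (log2 −1.31 ± 0.187, adjusted p = 0.0201, edgeR, unpaired). Retnla, which alternatively activated macrophages secrete, had 1.57, 1.08, and 1.28 CPM in LV and 5.79, 4.1, and 4.96 CPM in RV (log2 −1.91 ± 0.252, adjusted p = 0.0201, edgeR, unpaired). Tmprss13, a membrane serine protease, completed the 13, with a log2 difference of −1.99 ± 0.349.

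With the block, the leading RV genes further held the water channel Aqp4 (log2 −1.79), Pfkfb1, the bifunctional enzyme that sets fructose 2,6-bisphosphate (−1.24), the methyltransferase Inmt (−1.25), Enpp6 (−1.23), and Npr3 (−1.21), beside Rp1 and Ubxn10 (−1.78 and −1.47). Aqp4 had 2.64, 4.52, and 3.7 CPM in LV and 8.74, 17.5, and 11.9 CPM in RV. Its groups did not overlap, and the unpaired adjusted p was 0.112 (edgeR). Inmt showed how the hearts differed, with 4.46, 7.02, and 9.68 CPM in LV and 10.4, 17, and 22.8 CPM in RV. Its replicates spread widely, but the LV library was below the RV library of its heart by a similar factor each time (log2 −1.25 ± 0.116 with the block, adjusted p = 0.000272, and adjusted p = 1.0 without, edgeR). Exons of Pfkfb1 overlap Apex2 on the other strand. Of the 43 leading genes of both fits, 31 kept an adjusted p under 0.1 in all 10 blocked settings, and those that did not were Smoc1, Ptpru, Cdh11, Ces2e, Drd2, Ncam1, Gm5512, Casq1, Gm29013, Rp1, Ubxn10, and Ddc.

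Transcription factors of chamber patterning, which the embryo uses to tell the ventricles apart, differed little. Of 34 listed, Hand1, Irx6, and Isl1 were below the count filter, and of the 31 tested, 1 was called higher in LV (Irx5) and 1 lower (Hey2) with the block, with none called without it and a median log2 difference of −0.03. Over all tested genes the blocked shares were 0.835% higher and 1.01% lower. Irx5, an Iroquois factor that shapes the transmural gradient of repolarization, had 7.5, 9.42, and 7.53 CPM in LV and 3.83, 4.64, and 6.04 CPM in RV. The groups did not overlap (log2 0.77 ± 0.154, adjusted p = 0.0282, edgeR, with the block). Hey2, a Notch target of the compact ventricular wall, had 4.03, 4.73, and 3.42 CPM in LV and 5.38, 8.8, and 6.86 CPM in RV without overlap (log2 −0.77 ± 0.13, adjusted p = 0.0134, edgeR, with the block). For both genes the adjusted p was over 0.1 in 3 of 10 blocked settings.

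Tead1, a factor that binds the M-CAT letters shown above, passed the adjusted p but not the fold threshold, with 163, 172, and 140 CPM in LV and 132, 136, and 102 CPM in RV (log2 0.36 ± 0.0724, adjusted p = 0.0272, edgeR, with the block). Myocd, the cofactor of serum response factor, likewise passed the p alone (log2 0.38 ± 0.105, adjusted p = 0.0974, edgeR, with the block). Tbx5, which marks the LV in the embryo, had 19.2, 26.6, and 18.5 CPM in LV and 21.4, 31.4, and 23.5 CPM in RV. These values overlapped, and the log2 difference of −0.25 ± 0.152 had an adjusted p of 0.512 with the block (edgeR). Hand2, the factor of the embryonic RV, had 33.3, 39.9, and 33.2 CPM in LV and 41.9, 40.1, and 36.5 CPM in RV, also with overlap (log2 −0.16 ± 0.0888, adjusted p = 0.464, edgeR, with the block). In the stored hearts Hand2 was higher in LV, by 0.44 at 4 h and 0.67 at 8 h (adjusted p = 0.0327 and 0.000681), with a shift of 0.83 between 0 h and 8 h (adjusted p = 0.0035, edgeR, with the block). Hand1 had 0 CPM in each LV library and at most 0.0677 CPM in RV, so that a difference was not detectable at this depth.

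**Figure D3:**
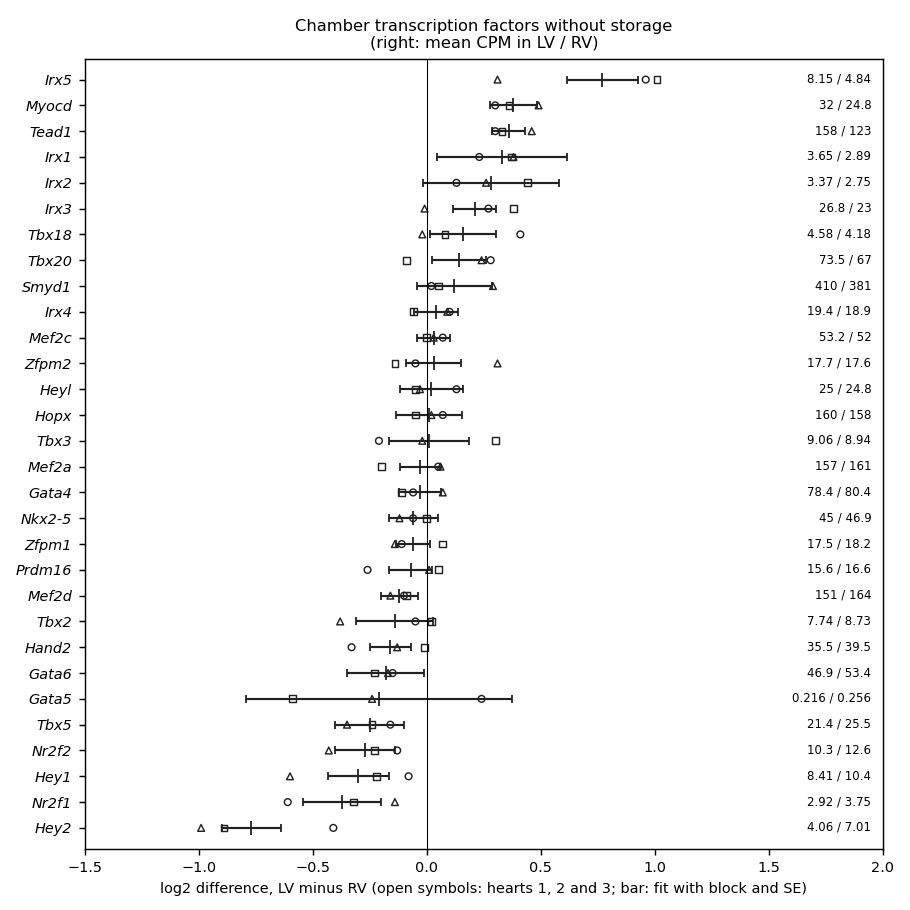
Log2 difference of LV minus RV without storage (x axis) for tested chamber transcription factors, with open symbols for the 3 hearts, bars for the blocked fit with its SE, and mean CPM in LV and RV at the right. Irx5 at 0.77 and Hey2 at −0.77 were the called genes, and Tbx5 at −0.25 and Hand2 at −0.16 did not pass.

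Genes of excitation and conduction were called one by one rather than as a list. Of 29 ion channel and connexin genes, Kcne1 was called higher in LV and 3 genes lower with the block, Kcnd2 and Scn10a among them (median −0.01). Over all tested genes 0.835% were called higher and 1.01% lower. Each of these 4 channel calls was lost in some of the 10 blocked settings. The adjusted p was over 0.1 in 5 of them for Kcne1 and in 4 for Kcnd2 and Scn10a. Kcnd2, the Kv4.2 channel of the fast transient outward current, had 23.4, 22.8, and 16.5 CPM in LV and 45.3, 46.2, and 25.8 CPM in RV. The groups did not overlap (log2 −0.88 ± 0.177, adjusted p = 0.0276, edgeR, with the block). Scn10a, the Nav1.8 sodium channel, had 1.3, 0.641, and 1.46 CPM in LV and 3.62, 1.93, and 3.66 CPM in RV (log2 −1.44 ± 0.286, adjusted p = 0.0265, edgeR, with the block). Of 19 calcium-handling genes (Atp2a2, Pln, Ryr2, and others) none was called, with a median of 0.01. Atp2a2, the sarcoplasmic calcium pump, had 14900, 16100, and 11200 CPM in LV and 15600, 17900, and 8910 CPM in RV. Its groups overlapped, and RV replicate 3 was the lowest library.

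In the list of BMP, TGF-beta, FGF, and Wnt signaling, 4 of 31 tested genes were called lower in LV with the block (Wif1, Sfrp1, Bmp10, and Chrdl1) and none higher, with a median of −0.15. Over all tested genes 1.01% were called lower and 0.835% higher. Of 10 blocked settings, the adjusted p was over 0.1 in 6 for Chrdl1 and in 1 for Sfrp1. Sfrp1, a second secreted Wnt antagonist, had 7.99, 9.45, and 13.3 CPM in LV and 15.2, 16.3, and 19.9 CPM in RV without overlap (log2 −0.76 ± 0.107, adjusted p = 0.00454, edgeR, with the block). Bmp10, a BMP of trabeculae and atria, had 0.062, 0, and 0 CPM in LV and 2.6, 2.27, and 0.196 CPM in RV. The LV values rest on at most 3 counts, so no fold is given. Among 19 neurohumoral receptors and ligands, Npr3 was called lower in LV. Npr3, the clearance receptor of natriuretic peptides, had 13.1, 13.4, and 17.9 CPM in LV and 30.2, 33.7, and 38.6 CPM in RV without overlap (chr15:11839896-11907287, minus strand). Its log2 difference was −1.21 ± 0.114 (adjusted p = 0.000272, edgeR) with the block, opposite in sign to that of its ligand Nppb, and the unpaired adjusted p was 0.29. Adra1a, the alpha-1A adrenergic receptor, and Ece1, which activates endothelins, passed the p alone, at 0.48 and −0.37.

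In energy metabolism few genes were called. Of 23 fatty acid oxidation genes, 1 was called lower in LV with the block, 4 passed the adjusted p at any fold, all lower in LV (4.09% of all tested genes passed in either direction), and the median was −0.11. LV was below RV in 3 of 3 hearts for 13 of the 23 and above it for 1. The share of all tested genes with the same sign in 3 of 3 hearts was not counted. Of 18 glycolysis genes and 13 mitochondrially encoded genes none was called, with medians of 0.03 and −0.07.

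Immediate-early genes, which cells induce within minutes of a stimulus, had positive differences throughout. All 20 genes had a positive log2 difference with the block (median 0.51), 16 of 20 were higher in LV in 3 of 3 hearts, 7 passed the adjusted p (against 4.09% of all tested genes), and 6 were called (Fos, Egr1, Egr3, Nr4a2, Atf3, and Myc). Fos, a subunit of AP-1, had 530, 380, and 263 CPM in LV and 207, 130, and 194 CPM in RV without overlap (log2 1.12 ± 0.308, adjusted p = 0.0974, edgeR, with the block). Egr1 had 1170, 763, and 511 CPM in LV and 799, 305, and 396 CPM in RV with overlap (log2 0.74 ± 0.179, adjusted p = 0.0595, edgeR, with the block). Nr4a2, an orphan nuclear receptor, had 26.8, 27.9, and 18.5 CPM in LV and 13.5, 13.1, and 13.8 CPM in RV (log2 0.84 ± 0.181, adjusted p = 0.0383, edgeR, with the block). In both ventricles Egr1, Egr3, Atf3, and Myc were highest in replicate 1. None of the 6 was called without pairing. Of 10 blocked settings, the adjusted p was over 0.1 in 6 for Fos, in 5 for Atf3, in 4 for Egr3 and Nr4a2, and in 3 for Egr1 and Myc. The order of chamber handling described above runs along with this list, and its part in the result was not tested. Of 9 heat shock genes none was called (median 0.41). The 35 interferon-induced genes and the 10 cytokine and inflammasome genes had no call, with medians of 0.15 and −0.03. Of the interferon-induced genes 30 had a positive difference, and 17 were above RV in 3 of 3 hearts and 0 below. For this list and the immediate-early list, the share of all tested genes with the same sign in 3 of 3 hearts was not counted. There was no call among the 16 clock genes, with a median of −0.09.

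Markers of other cell types were read as sums and single genes per library. The venous and endocardial list moved most evenly. Its 8 genes summed to 171 to 209 CPM in LV and 295 to 360 CPM in RV. The log2 ratios were −0.79, −0.81, and −0.78 in the 3 hearts. Vwf, with the CPM given above, made up a large part of these sums, and its own differences were −1.22, −1.35, and −1.21. The evenness of the sums thus partly restates that gene. The median log2 difference of the list was −0.70 with the block. In all, 4 of 8 were called lower in LV with the block (Vwf, Npr3, Plvap, and Cytl1), against 1.01% of all tested genes. Plvap, a diaphragm protein of fenestrated and endocardial endothelium, had 7.08, 4.46, and 7.03 CPM in LV and 13.1, 10.8, and 17.2 CPM in RV (log2 −1.14 ± 0.139, adjusted p = 0.00182, edgeR, with the block). Nr2f2, which defines venous identity, had 6.94, 11.5, and 12.5 CPM in LV and 7.6, 13.4, and 16.8 CPM in RV, and did not pass (adjusted p = 0.396 with the block, edgeR). None of the 8 capillary and general endothelial genes was called, with sums of 991 to 1410 CPM in LV and 943 to 1520 CPM in RV.

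Atrial markers ran unevenly over the hearts. The 11 genes summed to 256 to 419 CPM in LV and 242 to 547 CPM in RV, with log2 ratios of −0.38, −0.97, and 0.53. Myl7, the atrial regulatory light chain, had 25, 4.02, and 17.2 CPM in LV and 47.1, 37, and 11.7 CPM in RV, with LV replicate 2 and RV replicate 3 low. Bmp10 and Stard10 were the 2 called genes of the list, both lower in LV, and Bmp10 was also low in RV replicate 3, at 0.196 CPM. The part of atrial tissue in their difference was not tested. Stard10, over the limit in 4 of 10 blocked settings, had 19.4, 14.5, and 19.1 CPM in LV and 31.4, 29.4, and 28.8 CPM in RV, and so was not low in RV replicate 3. In the conduction list of 10 genes, 2 were called lower in LV, Etv1 among them. For Etv1 the adjusted p was over 0.1 in 5 of 10 blocked settings. The share of all tested genes called lower with the block, to be set beside the calls of both lists, was 1.01%. The conduction sums were 62.2 to 76.8 CPM in LV and 79.7 to 81.8 CPM in RV.

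Schwann cell markers summed to 7.97 to 9.99 CPM in LV and 14.6 to 15.5 CPM in RV, and Mbp and Sox10 were called lower in LV among 5. White adipocyte markers summed to 2.21 to 4.73 CPM in LV and 6.56 to 7.34 CPM in RV with none of 5 tested genes called. Macrophage markers summed to 168 to 263 CPM in LV and 218 to 334 CPM in RV. LV was lower in 3 of 3 hearts for 11 of 13, a measure for which no share of all tested genes was counted. Cd163 and Ccr2 were called lower in LV, and over all tested genes 1.01% were. Fibroblast markers summed to 903 to 1020 CPM in LV and 1080 to 1160 CPM in RV with none of 10 called. In the smooth muscle list Acta2 was called lower in LV, and in the valve and tendon list Comp was called lower and Scx, a tendon transcription factor, higher. Of 10 blocked settings, the adjusted p was over 0.1 in 6 for Mbp, Sox10, and Scx, in 5 for Ccr2, and in 4 for Cd163 and Acta2. Scx had 4.63, 2.84, and 2.8 CPM in LV and 2.08, 2.23, and 1.73 CPM in RV. The RV excess of Retnla stands beside that of the macrophage markers, a list that does not hold it. Comp is itself a member of the valve and tendon list, and Vwf and Npr3 of the venous and endocardial list. Those lists are therefore no separate evidence for these genes. The part of cell composition in these results was not tested.

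**Figure D4:**
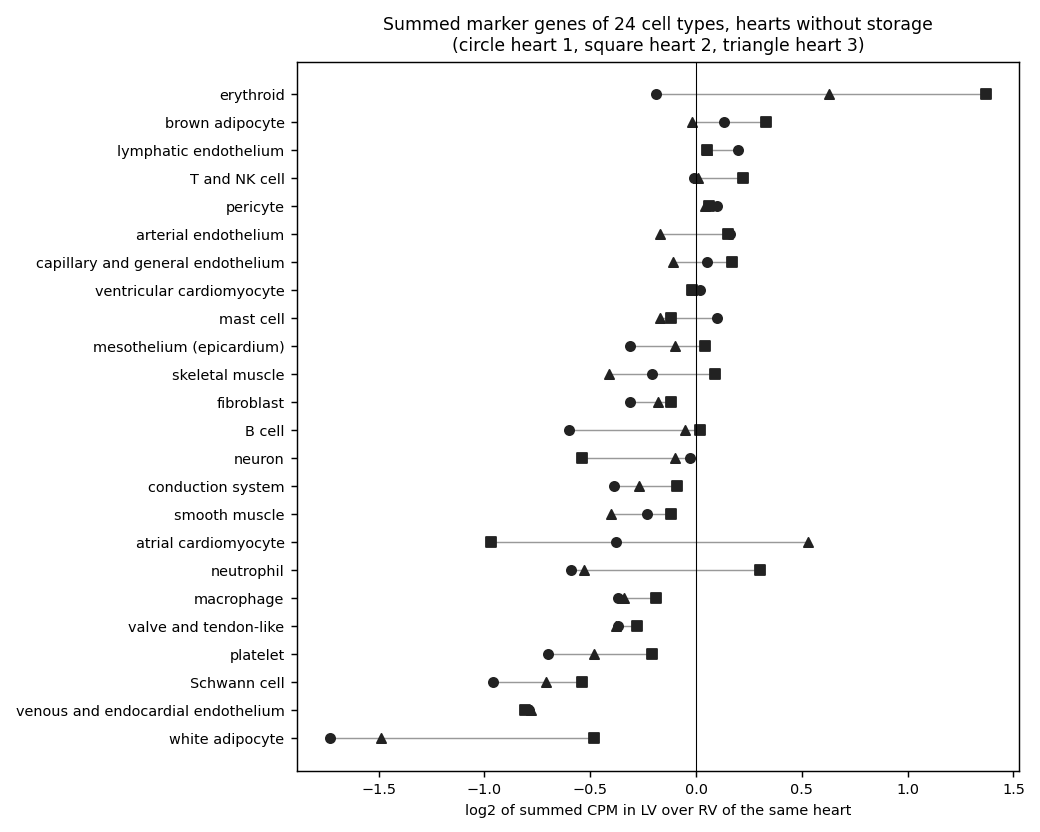
Log2 of the summed CPM of each marker list in LV over RV of the same heart (x axis), with 1 symbol per heart and a line over their range. The venous and endocardial list lies at −0.79, −0.81, and −0.78, and the atrial list spreads from −0.97 to 0.53.

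The hearts stored for 4 h and 8 h gave the same ventricle contrast in libraries that the 0 h values did not use, although all libraries share 1 dispersion estimate in the fit. All 24 unpaired calls had the same direction at both times. In these hearts the unpaired fit called 0 genes higher and 2 lower at 4 h (0.0133% of tested genes lower, 223 in each direction at an unadjusted p under 0.05) and 2 higher (0.0133%) and 3 lower (0.0199%) at 8 h. Of the 126 genes higher in LV with the block, 105 (83.3%) had a positive difference at 4 h and 86 (68.3%) at 8 h, against 50.4% and 52.5% of all tested genes. Their median log2 difference was 0.99 at 0 h, 0.54 at 4 h, and 0.58 at 8 h. Of the 153 genes lower in LV, 146 (95.4%) and 143 (93.5%) kept the sign, with medians of −0.96, −0.54, and −0.67. At 4 h, 126 tested genes were called higher in LV (0.835%) and 165 lower (1.09%) with the block, and at 8 h 339 (2.25%) and 986 (6.53%). Of the 126 LV genes of 0 h, 49 were called in the same direction at 4 h and 60 at 8 h, and of the 153 RV genes 52 and 81. At all 3 times 43 genes were higher in LV and 44 lower. The first group held Nppb, Acta1, Myh7, Myot, Mybpc2, Xirp2, Ptgds, Bdh1, Edn3, and Scx, and the second Wif1, Vwf, Igf2, Hey2, Kcnd2, Scn10a, Aqp4, Retnla, Cd163, and Plvap.

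Some differences held their size and others shrank. Acta1 had log2 differences of 2.05 at 4 h and 2.19 at 8 h (adjusted p = 0.0048 and 0.000506, edgeR, with the block), beside 2.6 at 0 h. Wif1 had −2.1 and −1.85 (adjusted p = 0.00196 and 0.000538), beside −2.23. Nppb had 1.74 and 1.44, beside 2.95, and the change of its difference from 0 h to 8 h was −1.51 (adjusted p = 0.0172, edgeR, with the block). Hey2 had −0.77, −0.77, and −0.83, and Irx5 had 0.77, 0.53, and 0.8, of which the 4 h value did not pass (adjusted p = 0.113). Tests of a changed difference use the 0 h libraries a second time, so they are not independent of the 0 h calls.

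Of the 126 LV genes, 23 were called in the opposite direction at 8 h, and 2 of the 153 RV genes were. Among the 23 were Fos, Egr1, Egr3, Nr4a2, Atf3, Myc, Ccn2, and Thbs1. The immediate-early list had a median of 0.51 at 0 h, −0.10 at 4 h, and −1.04 at 8 h. Atf3, a stress-induced factor of the ATF family, had log2 differences of 0.8, −0.08, and −1.33, of which the first and the last passed (adjusted p = 0.0653 and 0.00128, edgeR, with the block). The change of the difference from 0 h to 8 h was −2.14 (adjusted p = 0.00201). The venous and endocardial list kept its sign, with medians of −0.70, −0.49, and −0.51. Without pairing, edgeR found 0 genes with a changed difference at either time (97 up and 61 down at 4 h and 194 up and 434 down at 8 h at an unadjusted p under 0.05). With the block it found 7 up and 42 down at 4 h (0.325% of tested genes) and 536 up and 1210 down at 8 h (11.6%). These counts fell whichever heart of 0 h was left out, which also leaves fewer libraries for the test. At 8 h they were 86 and 609 without heart 1, 198 and 693 without heart 2, and 125 and 849 without heart 3. At 4 h they were 1 and 2, 0 and 0 (514 and 586 at an unadjusted p under 0.05, edgeR), and 2 and 12.

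**Figure D5:**
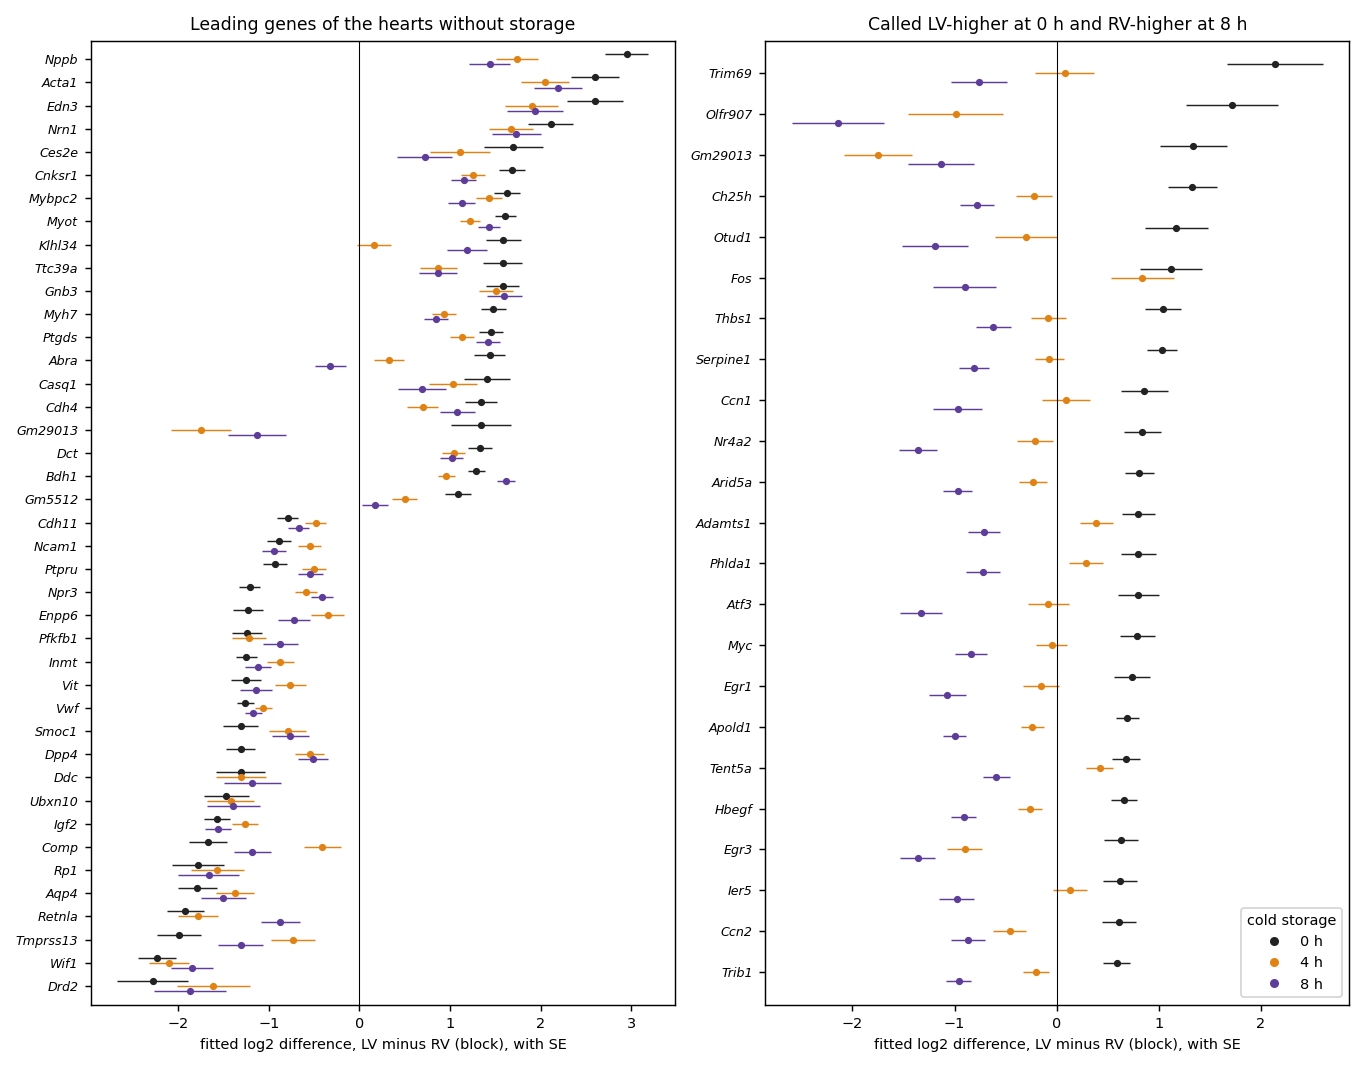
Fitted log2 difference of LV minus RV with SE (x axis) at 0 h, 4 h, and 8 h of cold storage, for leading genes (left) and for the 23 genes called higher in LV at 0 h and lower at 8 h (right), which were chosen after their values were seen. Wif1 stays near −2 at all times, Nppb goes from 2.95 to 1.44, and Fos from 1.12 to −0.90.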

How the data were processed

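Total RNA of LV and RV tissue was sequenced in 18 libraries. The authors pseudoaligned the reads with Kallisto at default settings, and deposited for each library a table of estimated counts, TPM, and transcript lengths per transcript. The annotation release was not given in the sources used here, and 1259 of 111462 transcripts had no match in GENCODE M21 (GRCm38) and were left out.

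From the deposited estimated counts, transcripts were summed to 34989 genes and rounded to whole numbers. Genes were filtered with filterByExpr, normalized with TMM, and fitted with edgeR 4.0.16 (R 4.3.3, limma 3.58.1) by the quasi-likelihood test in 1 model of all 6 groups of 3 libraries, with Benjamini-Hochberg adjustment over all tested genes. Calls needed a fold change of more than 1.5 with 0.1 as the limit of the adjusted p. The deposited TPM values served only to compare levels between genes. Tables were made with Python 3.11.15, pandas 2.3.3, and numpy 2.4.6, and the scripts were tested on simulated data. Totals of 26792741 to 46236771 estimated counts per 0 h library set the precision, and values of a few counts are given without a fold.

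A second fit had the heart as a block (9 hearts). The methods state that both ventricles of each heart were collected, the labels number the replicates without naming a heart, and same-numbered libraries correlated by 0.33 or more at each storage time, above the minimum of 0.1 set for pairing. The labels do not say more on how replicates were obtained, so p-values measure the spread between these samples.

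Named genes were all unpaired calls, the 15 largest blocked differences per direction with the same sign in 3 of 3 hearts and at least 5 CPM in the higher ventricle, all chamber transcription factors, and the called members of the other lists, or up to 3 of their most abundant members. The 42 lists (17 by function and 25 of cell type markers, 523 entries) and the members of the comparison were chosen with earlier results of these data known. Alternatives were DESeq2 1.42.0, RLE size factors, transcript length offsets, no count filter, no mitochondrial genes, other thresholds, the 6 libraries alone, and leaving out each library or heart. RefSeq windows of 250 bases before gene starts were searched for 7 motifs. A few genes that these rules select are not reported here.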

Additional observations from a re-analysis of the deposited data

Results flagged for a closer look

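For 36 named genes at 8 h and 5 at 4 h, the LV minus RV difference differed from that at 0 h in the blocked edgeR fit (adjusted p under 0.1 for the change of the difference), and none of these changes passed without pairing. The tests share the 0 h libraries, and their counts moved strongly when 1 heart of 0 h was left out. Values below are changes of the log2 difference, so a negative value is a shift toward RV.

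Of genes that led the comparison, Nppb changed by −1.51, Myh7 by −0.63, Abra by −1.76, Gm5512 by −0.92, and Gm29013 by −2.46 at 8 h. Among RV genes, Npr3 changed by 0.80, Dpp4 by 0.80, and Retnla by 1.04. At 4 h Klhl34 changed by −1.43 and Gm29013 by −3.09. Of the chamber transcription factors, Hand2 changed by 0.83, Irx4 by 0.62, and Hey1 by 0.67 at 8 h, and Hey1 by 1.16 at 4 h.

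Of the immediate-early genes, 6 passed at 8 h, with −2.01 for Fos, −1.81 for Egr1, −2.00 for Egr3, −2.19 for Nr4a2, −2.14 for Atf3, and −1.63 for Myc, and Egr3 also at 4 h, with −1.53. Stress and matrix genes did so by −1.48 (Ccn2), −1.28 (Rcan1), −0.93 (Gdf15), and −1.67 (Thbs1) at 8 h, and Rcan1 by −0.97 at 4 h. The cytokines Ccl2 and Tnf changed by −0.88 and −1.18, the heat shock genes Hspa8 and Hspb1 by −0.66 and −0.74, the interferon-induced H2-K1 and Iigp1 by −0.60 and −0.54, and the clock genes Bhlhe40 and Nr1d2 by −1.05 and −0.53, all at 8 h. Markers of other cell types changed at 8 h by −1.02 (Dll4), −0.65 (Sox17), −0.77 (Ccl21a), −1.17 (Wt1), −1.40 (Cd3d), −0.83 (Kit), and 1.74 (Ighm).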

How the results depend on the processing

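The counts of called genes depended on pairing and on single libraries, and no gene called without pairing changed its direction. Named genes that were not called did change sign in some settings, and so did Gdf15, called only with the block, whose unpaired log2 difference was 0.73 with all libraries and −0.52 without LV replicate 1. Against 11 higher and 13 lower in LV at 0 h, and 0 and 1 at all 3 times, the replicate block gave 126 and 153, and 43 and 44. DESeq2 gave 22 and 37, and 7 and 10 at all times, and with the block 113 and 115, and 35 and 36. Transcript length offsets gave 6 and 5, and 0 and 0, and with the block 88 and 94, and 25 and 30. An adjusted p under 0.05 gave 3 and 3, and 0 and 0, and the test against a fold change of 1.5 gave 0 and 0 at 0 h (edgeR, 62 and 103 at an unadjusted p under 0.05) and 0 and 0 at all times. RLE size factors and leaving out mitochondrial genes each gave 0 lower genes at all times, and RLE with the block gave 130 and 151, and 41 and 45. The 6 libraries of 0 h with the block gave 177 and 224. Leaving out 1 library gave 0 to 6 higher and 0 to 5 lower genes at 0 h, and 0 and 0 at all times. With the block, the counts were 56 and 41 without heart 1, 53 and 59 without heart 2, and 71 and 62 without heart 3, and at all times 26 and 17, 26 and 18, and 30 and 23.

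An adjusted p under 0.05 with the block (88 and 101, and 29 and 29) and the test against a fold change of 1.5 with the block (26 and 21, and 7 and 5) were chosen after seeing the data. Of 176 named genes tested, 53 gained a call with the block and 123 did not change. Many of these genes were named because the blocked fit called them, so that gain follows from their choice. DESeq2 added 13, and length offsets lost 13. Differences in genes of under about 1 CPM were limited by depth.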
